A study of Danio rerio with 12 samples.

Results

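The solute carrier (SLC) genes on the array were followed in whole zebrafish larvae. Members were all genes whose probe sets carried 1 gene symbol made of slc, a family number and a letter, each gene being represented by its probe set with the highest mean signal. This gave 136 genes in 39 carrier families, from 157 probe sets, out of 8793 genes with 1 symbol and 15502 probe sets. One further matching gene is not reported here. Of the 136 genes, 111 passed the filter on low signal and were tested, and 25 were too dim. Symbols alone decided membership, so the set also holds slc4a1ap, named for an adaptor protein of an anion exchanger, and slc7a6os, named for the strand opposite to a carrier gene. Neither name describes a carrier protein, and slc4a1ap was among the dim genes.

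Solute carriers are membrane proteins that move amino acids, sugars, ions, metals, nucleotides and organic acids across the plasma membrane and across the membranes of mitochondria and other organelles. Those of the intestine and kidney take up nutrients and salts, those of the brain clear and package neurotransmitters, and the mitochondrial family exchanges metabolites with the cytosol. Members are numbered by sequence family, and a family often shares a class of substrate.

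RNA came from pools of 30 whole larvae collected at 96 hours post fertilisation (hpf), after chemicals had been added to the water from 72 hpf. The 4 labelled groups, with 3 arrays each, were 0.1 µM 17beta-estradiol with 1 nM TCDD (E2+TCDD), E2 alone at 0.1 µM, TCDD alone at 1 nM, and the solvent control with 0.1% DMSO. E2 is an estrogen, and TCDD is a dioxin that activates the aryl hydrocarbon receptor. The study set out to find responses that are shared by both chemicals or particular to one. The design text calls the arrays biological replicates in 2 batches, and the p-values below measure the spread between these arrays.

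Each array also carried a number and a letter in its description. Letter C held replicate 1 of each group. Letter B held replicates 2 and 3 and fell into 2 series by number, the second with the arrays TCDD 2, TCDD 3, E2+TCDD 2 and E2+TCDD 3 and the first, of lower numbers, with DMSO 2, DMSO 3, E2 2 and E2 3. The letter was taken as the batch, which is an inference. The 4 numbers of the first series recur in letter C, so arrays with the same number may come from 1 RNA although their titles differ.

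Marker genes went against the titles in letter B, which bears on every comparison below. The dioxin target cyp1a had a signal of 20170 to 23173.2 in 6 arrays and of 263.9 to 414.7 in the other 6. In letter C the high arrays were E2+TCDD 1 and TCDD 1, while in letter B they were both arrays labelled E2 and both labelled E2+TCDD. The brain aromatase gene cyp19a1b, an estrogen target, had a signal of 255.9 to 296.5 in 6 arrays and of 36.1 to 70.1 in the others. In letter C its high arrays were E2+TCDD 1 and E2 1, while in letter B they were replicate 3 of all 4 groups. Each labelled pair of letter B thus held 1 array with high and 1 with low cyp19a1b. Over both letters, the groups E2 and TCDD each held arrays with high and with low cyp1a. The spread within labelled groups therefore includes differences between unlike marker states, and p-values that rest on it do not measure biological replicates alone. Groups were left as the titles give them, and no array was reassigned. A direction named below belongs to arrays as labelled.

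The 5 SLC genes with the highest mean signal are given by their range, since signals of different probe sets are not comparable as levels. The mitochondrial phosphate carrier slc25a3b had a signal between 8869.9 and 11743.7 over the 12 arrays. The glial glutamate transporter slc1a2b ran between 8952.2 and 10240.6, and the mitochondrial ADP/ATP carrier slc25a4 between 7742.1 and 10722.3. The vesicular transporter of inhibitory amino acids, slc32a1, lay between 1713.0 and 2778.3. The glutamine transporter slc38a5b lay between 1844.2 and 2974.5. All 5 stayed within a narrow range, the widest being 1.62-fold between the lowest and the highest array. At the other end, among members past the filter, the monocarboxylate carrier slc16a1b spanned 61.6 to 363.7, or 5.9-fold. Dim members under the filter could span more, as slc4a1ap did at 12.6-fold. The 4 letter C arrays of slc16a1b lay between 234.9 and 363.7 and its 8 letter B arrays between 61.6 and 131.2. The intestinal peptide transporter slc15a1b spanned 76.1 to 327.0, or 4.3-fold, and the sulfate transporter slc13a1 spanned 39.9 to 144.6, or 3.62-fold.

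The 12 arrays compared by labelled group gave no SLC gene that was called as changed. With the letter as a batch term, limma called 0 of 111 members at an adjusted p under 0.05 in E2 over DMSO (background: 0% of all probe sets), 0 in TCDD over DMSO (0%) and 0 in E2+TCDD over DMSO (0.0602%, with 0.0172% higher and 0.043% lower). At an unadjusted p under 0.05 the members numbered 9 (8.11%), 11 (9.91%) and 21 (18.9%) in these contrasts. Among all probe sets the numbers were 770 (6.62%), 1114 (9.58%) and 1348 (11.6%). The 3 contrasts share the DMSO arrays. The smallest p in E2 over DMSO was that of slc35f6, at -0.29 log2 (limma adjusted p 0.73). In TCDD over DMSO it was that of the zinc transporter slc39a6, at 0.30 log2 (limma adjusted p 0.28). In E2+TCDD over DMSO it was that of the sodium-phosphate cotransporter slc34a2b, at -0.63 ± 0.14 (SE) log2 with limma's adjusted p 0.0937. By the same fit cyp1a itself was not called, with an E2+TCDD over DMSO difference of 5.79 ± 1.48 (SE) log2 and limma's adjusted p 0.146. A low count in these 12-array contrasts therefore does not show that SLC genes were unchanged.

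In letter B, the SLC genes slc15a1b, slc37a4a, slc25a43, slc4a4b, slc35b4 and slc25a33 were higher and slc34a2b, slc4a2a and slc13a2 were lower in the 4 arrays labelled E2+TCDD or E2 than in the 4 labelled TCDD or DMSO. The marker cyp1a followed the same split (61.2-fold higher, 5.94 ± 0.08 (SE) log2). The split was chosen with the cyp1a values known, so the cyp1a difference is a description and not a test. Of 111 members, 9 were called by limma, or 8.11%, against 3.21% of all probe sets. Of these, 6 were higher in the E2+TCDD and E2 arrays (background 2.26%) and 3 were lower (background 0.946%). The median difference of the members was 0.00 log2 and that of all probe sets -0.01. Differences ran from -0.42 to 0.80. By the separation of the arrays alone, 5 members lay wholly above and 5 wholly below in the E2+TCDD and E2 arrays, 9.01% of members against 7.88% of probe sets. All folds below are on the log2(signal + 16) scale, which understates changes of dim genes.

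Of the sugar-phosphate family slc37, 1 of 3 tested members was called, and of the nucleotide-sugar family slc35, 1 of 6, both higher. The glucose-6-phosphate transporter slc37a4a carries its substrate into the endoplasmic reticulum, a step of glucose release in the liver. It had a signal of 584.3 and 563.4 in the E2+TCDD arrays and 713.2 and 707.7 in the E2 arrays, against 362.8 and 381.1 in the TCDD arrays and 415.9 and 421.5 in the DMSO arrays. The sets did not overlap, and within each number series the E2-labelled arrays stood above their counterparts. The mean was 642.2 ± 79.4 in E2+TCDD and E2 arrays and 395.3 ± 28.1 in TCDD and DMSO arrays (SD, n = 4 each), a 1.59-fold difference (0.67 ± 0.07 (SE) log2, limma adjusted p 8.08e-05). A second probe set of slc37a4a was also higher, by 0.46 log2 (limma adjusted p 0.00772). Its paralogue slc37a4b had a difference of -0.18 log2 and was not called.

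The Golgi nucleotide-sugar transporter slc35b4 had 456.1 and 522.6 in E2+TCDD arrays and 559.6 and 516.7 in E2 arrays, against 376.5 and 326.5 in TCDD arrays and 457.7 and 430.0 in DMSO arrays. The sets met at 1 array, DMSO 2, which lay just above E2+TCDD 2. The difference was 1.29-fold (0.36 ± 0.08 (SE) log2, limma adjusted p 0.026). It passed in 2 of the 8 fits that leave out 1 array.

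Of the mitochondrial family, slc25, 2 of 23 tested members were called, both higher. The orphan carrier slc25a43 had 379.2 and 359.5 in E2+TCDD arrays and 492.3 and 482.0 in E2 arrays, against 269.0 and 234.7 in TCDD arrays and 281.6 and 332.0 in DMSO arrays. All E2-labelled arrays stood above all others. The mean was 428.2 ± 68.6 in E2+TCDD and E2 arrays and 279.3 ± 40.3 in TCDD and DMSO arrays (SD, n = 4 each), 1.5-fold apart (0.59 ± 0.08 (SE) log2, limma adjusted p 0.00182). The pyrimidine nucleotide carrier slc25a33 had 1437.9 and 1253.8 in E2+TCDD arrays and 1984.8 and 1779.2 in E2 arrays, against 1240.0 and 1113.7 in TCDD arrays and 1387.9 and 1439.0 in DMSO arrays. Here the E2 arrays were the highest and the E2+TCDD arrays lay within the range of the TCDD and DMSO arrays. The difference was 1.23-fold (0.30 ± 0.07 (SE) log2, limma adjusted p 0.0258), passing in 3 of 8 fits with 1 array left out. The calcium-regulated ATP-Mg carrier slc25a25a, singled out after its values were seen, had 443.9 and 256.1 in E2+TCDD arrays and 478.7 and 462.5 in E2 arrays, against 277.0 and 230.1 in TCDD arrays and 261.3 and 322.2 in DMSO arrays. With E2+TCDD 3 within the range of the TCDD and DMSO arrays, its 0.53 log2 difference was not called (limma adjusted p 0.0655).

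**Figure D1:**
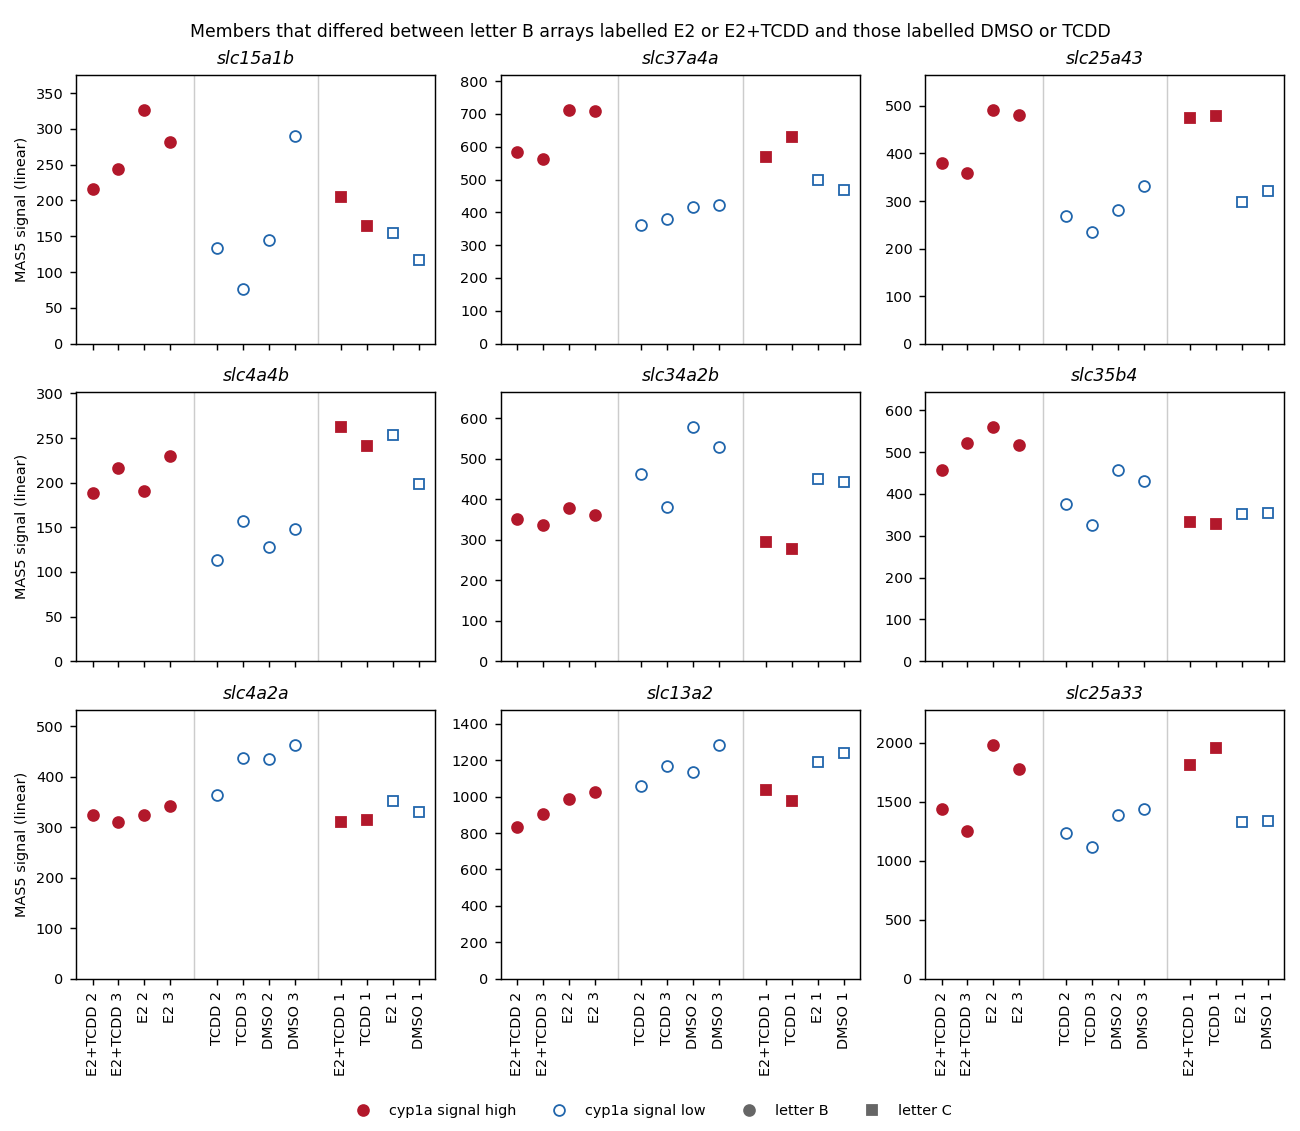
MAS5 signal (linear axis from 0) of the 9 SLC genes called between letter B arrays labelled E2+TCDD or E2 and those labelled TCDD or DMSO, 1 point per array and no error bars; the 4 letter C arrays stand at the right as squares, filled points mark high cyp1a. In slc37a4a and slc25a43 the filled points lie above all open ones, and in slc34a2b and slc13a2 below them.

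Among carriers of peptides and organic acids, 1 member was higher and 1 was lower. The proton-coupled peptide transporter slc15a1b, which takes up dipeptides and tripeptides in the intestine, had 215.6 and 244.4 in E2+TCDD arrays and 327.0 and 282.0 in E2 arrays, against 133.7 and 76.1 in TCDD arrays and 144.3 and 289.8 in DMSO arrays. The array DMSO 3 lay among the E2 arrays, so the sets overlapped. The difference was the largest of the 111 members, at 1.74-fold (0.80 ± 0.19 (SE) log2, limma adjusted p 0.0422), but it passed in only 2 of 8 fits with 1 array left out. The sodium-dicarboxylate cotransporter slc13a2, which recovers citric acid cycle intermediates in kidney and gut, had 832.2 and 906.1 in E2+TCDD arrays and 987.9 and 1028.0 in E2 arrays, against 1061.0 and 1168.8 in TCDD arrays and 1138.2 and 1285.6 in DMSO arrays. No array of the E2-labelled set reached the lowest of the others. The mean was 938.6 ± 87.2 in E2+TCDD and E2 arrays and 1163 ± 93.2 in TCDD and DMSO arrays (SD, n = 4 each), a difference of -0.31 ± 0.06 (SE) log2 (limma adjusted p 0.0219). It passed in 3 of 8 fits with 1 array left out.

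Carriers of bicarbonate, chloride and phosphate gave 3 calls, 1 higher and 2 lower. The sodium-bicarbonate cotransporter slc4a4b had 188.1 and 216.5 in E2+TCDD arrays and 191.2 and 230.1 in E2 arrays, against 113.8 and 157.1 in TCDD arrays and 127.6 and 148.3 in DMSO arrays. The sets were apart, and the fold was alike in both number series, 1.47 in the first and 1.45 in the second. Over both the difference was 1.46-fold (0.55 ± 0.12 (SE) log2, limma adjusted p 0.0295), passing in 3 of 8 fits with 1 array left out. The chloride-bicarbonate exchanger slc4a2a had 324.9 and 311.2 in E2+TCDD arrays and 323.8 and 341.8 in E2 arrays, against 364.3 and 436.2 in TCDD arrays and 435.2 and 463.4 in DMSO arrays. Its sets did not overlap either. The difference of -0.36 ± 0.08 (SE) log2 (limma adjusted p 0.029) passed in 1 of 8 fits with 1 array left out, and a dimmer probe set of slc4a2a differed by -0.02 log2 only.

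The sodium-phosphate cotransporter slc34a2b, of a family that absorbs phosphate in epithelia, had 351.1 and 335.4 in E2+TCDD arrays and 377.1 and 361.8 in E2 arrays, against 462.6 and 380.6 in TCDD arrays and 577.4 and 529.5 in DMSO arrays. The E2-labelled arrays were tightly grouped and all lower, with TCDD 3 closest to them. The mean was 356.4 ± 17.6 in E2+TCDD and E2 arrays and 487.5 ± 85.4 in TCDD and DMSO arrays (SD, n = 4 each), a difference of -0.42 ± 0.08 (SE) log2 (limma adjusted p 0.0131). It passed in 6 of 8 fits with 1 array left out, while slc37a4a and slc25a43 passed in all 8. Without DMSO 2, E2 2 or E2 3 the 9 calls became 3, and without TCDD 3 they became 4.

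Markers of the gut epithelium and of photoreceptors each gave 1 higher and 1 lower call along this split. Of 8 enterocyte markers, 6 had a probe set and were tested, with a list median of 0.06 log2. The fatty acid binding protein gene fabp2 was higher in E2+TCDD and E2 arrays by 0.31 log2 (limma adjusted p 0.0427) and the alkaline phosphatase gene alpi.2 was lower, at -0.68 log2 (limma adjusted p 0.00169). Their summed signal was 20828 to 27104 in E2+TCDD and E2 arrays and 19504 to 28115 in TCDD and DMSO arrays. Of 7 hepatocyte markers tested, 0 were called, with summed signals of 63309 to 67801 in E2+TCDD and E2 arrays and 63424 to 67722 in TCDD and DMSO arrays. A summed signal mostly follows the brightest probe sets of a list. The hepatocyte sum thus says little of fabp10a, at -0.35 log2 and not called, while the list median was 0.01 log2. Of 4 photoreceptor markers tested, the cone opsin gene opn1mw2 was higher by 0.72 log2 (limma adjusted p 3.35e-05) and the recoverin gene rcvrn2 was lower, at -0.45 log2 (limma adjusted p 0.000376). The photoreceptor list had a median of -0.11 log2 and summed signals of 9552 to 10908 in E2+TCDD and E2 arrays and 10092 to 11407 in TCDD and DMSO arrays. Pronephros, neuron, skeletal muscle, erythroid and exocrine pancreas markers gave 0 calls. The part of these tissues in the SLC calls was not tested. Ionocytes, which hold many of the ion carriers in larval skin, could not be followed as a list, since 1 of 7 markers had a probe set. In whole larvae, fewer cells of a type and less RNA per cell cannot be told apart.

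The split was then taken apart by number series. The log2 differences of the series have no array in common. Their p-values rest on a spread estimated from all letter B arrays, so calls in the series are not independent of each other. In the first series, E2 over DMSO, 3 of 111 members were called by limma (background 0.955%). These were slc37a4a at 0.74 log2 (limma adjusted p 0.00158), slc25a43 at 0.64 (limma adjusted p 0.0252) and slc34a2b at -0.56 (limma adjusted p 0.0423). Next by p came the amino acid carrier slc38a5b, at -0.41 log2 (limma adjusted p 0.0587), and slc25a33, at 0.41 (limma adjusted p 0.0657). In the second series, E2+TCDD over TCDD, 1 member was called (background 1.14%, or 0.929% for higher calls), slc37a4a at 0.60 log2 (limma adjusted p 0.005). There slc25a43 had 0.53 log2 (limma adjusted p 0.0615), slc35b4 0.46 (limma adjusted p 0.0891), slc15a1b 1.06 (limma adjusted p 0.104) and slc13a2 -0.35 (limma adjusted p 0.11). Over all members, 75 of 111 (67.6%) had the same sign in both series, against 60.4% of probe sets. Of the 21 members past 0.3 log2 in the first series, 18 kept their sign in the second (85.7%), against 73.6% of such probe sets.

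No SLC gene was called as differing between the number series in this contrast by the test of the difference. The test rests on labelled pairs of arrays, so the lack of a call does not show equal differences in both series. Limma called 0 of 111 members (background 0.0086%), with 7 members (6.31%) and 582 probe sets (5.01%) at an unadjusted p under 0.05. The 5 members with the smallest p were slc39a6, slc35a4, slc25a55a, slc31a1 and slc38a5b, all at limma's adjusted p 0.928. The widest of these differences was -0.84 ± 0.28 (SE) log2, for slc35a4 of the nucleotide-sugar transporter family.

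**Figure D2:**
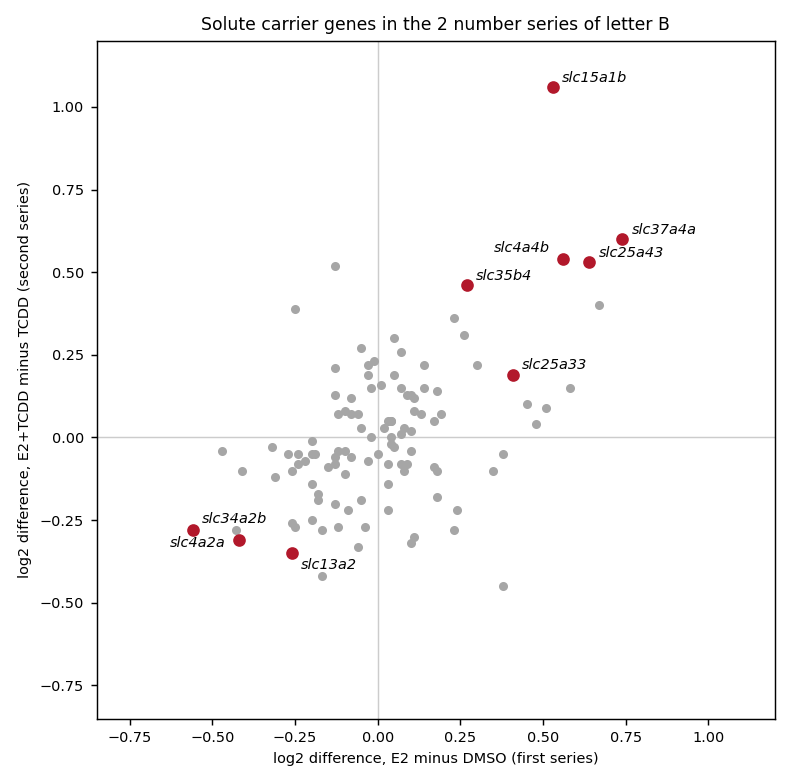
Each point is 1 of the 111 tested SLC genes, with its log2 difference of E2 minus DMSO in the first number series on the horizontal axis and of E2+TCDD minus TCDD in the second on the vertical axis; named points are genes called over both series. The called genes lie in the quadrants where both differences have 1 sign, slc37a4a at 0.74 and 0.60 and slc34a2b at -0.56 and -0.28. They were called on the mean of both plotted differences, so a shared sign is favoured by how they were picked.

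Letter C, with 1 array per group, gives no replicate and no test. Its numbers are those of the first series, so its arrays may come from the same RNA as arrays behind the letter B calls. A shared direction is then no independent support. There cyp1a was high in E2+TCDD 1 and TCDD 1. Of the 9 members called in letter B, 8 (88.9%) differed in the same direction between E2+TCDD 1 and TCDD 1 on one side and E2 1 and DMSO 1 on the other. This compares with 351 of the 373 called probe sets (94.1%). The phosphate cotransporter slc34a2b had 294.7 and 277.7 in E2+TCDD 1 and TCDD 1, against 448.7 and 443.2 in E2 1 and DMSO 1, or -0.61 log2. The mitochondrial slc25a43 had 475.4 and 478.0 in E2+TCDD 1 and TCDD 1, against 297.0 and 320.4 in E2 1 and DMSO 1, or 0.60 log2. In both genes these pairs were well apart. For slc37a4a the values were 569.2 and 628.4 in E2+TCDD 1 and TCDD 1, against 498.5 and 469.4 in E2 1 and DMSO 1, or 0.30 log2, a smaller step than in either series of letter B. The smallest steps in the same direction were 0.16 log2 for slc4a4b and -0.12 for slc4a2a. The exception in sign was slc35b4, with 333.5 and 327.4 in E2+TCDD 1 and TCDD 1, against 352.9 and 354.8 in E2 1 and DMSO 1.

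Set beside cyp1a over all 12 arrays, as a description with no test, 4 of 111 members (3.6%) had signals in the 6 arrays with high cyp1a that did not overlap those in the 6 with low cyp1a (background 1.75%). These were slc37a4a and slc25a43 above, and slc34a2b and slc13a2 below. In slc37a4a the high-cyp1a arrays started at 563.4 (E2+TCDD 3) and the low-cyp1a arrays ended at 498.5 (E2 1). Set beside cyp19a1b, 0 of 111 members had signals that did not overlap (background 0.0602%).

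The replicate number in letter B, which cyp19a1b followed (4.58-fold higher in replicate 3, 2.20 ± 0.12 (SE) log2), went with no called SLC gene. The contrast was chosen with the cyp19a1b values known, so the cyp19a1b difference is a description and not a test. Limma called 0 of 111 members (background 0.0086%, cyp19a1b being the 1 call), with 5 members (4.5%) and 519 probe sets (4.46%) at an unadjusted p under 0.05. The 5 were slc2a15b at -0.23 log2, slc32a1 at -0.19, slc4a4b at 0.26, slc16a1b at -0.32 and slc35a4 at 0.28, all at limma's adjusted p 0.975. Arrays of replicates 3 and 2 did not overlap for 2 members (1.8%), against 1.58% of probe sets. Member differences ran from -0.32 to 0.28 log2, a smaller span than in any other contrast here.

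Between the 2 number series of letter B the SLC genes differed more widely. The second series holds the arrays labelled TCDD and E2+TCDD and the first those labelled DMSO and E2. By title, number series and TCDD exposure therefore cannot be told apart here. By signal, each series held arrays with high and with low cyp1a. The target cyp1a did not follow this split (-0.18 ± 0.08 (SE) log2, limma adjusted p 0.238). Limma called 7 of 111 members (6.31%), against 2.98% of all probe sets, with 2 higher in the second series (background 1.25%) and 5 lower (background 1.73%). The series did not overlap for 4 members that were higher and 9 that were lower in the second (11.7%), against 8.23% of probe sets. Unadjusted, 35 members (31.5%) had a p under 0.05, against 2096 probe sets (18%). The median difference of the members was -0.05 log2, against 0.01 over all probe sets.

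Mitochondrial carriers, the largest family with 23 of the 111 tested members, made up 3 of the 7, with 1 higher and 2 lower. Their class median was -0.06 log2. The uncoupling-protein relative slc25a14 had 260.4 and 216.9 in TCDD arrays and 201.1 and 184.3 in E2+TCDD arrays, against 412.5 and 502.6 in DMSO arrays and 327.8 and 342.3 in E2 arrays. Every second-series array was lower than every first-series array. The mean was 215.7 ± 32.7 in the second series and 396.3 ± 79.9 in the first (SD, n = 4 each), a difference of -0.82 ± 0.10 (SE) log2 (limma adjusted p 0.000917), the widest of the 111 members. A second probe set of slc25a14 was also lower, at -0.62 log2 (limma adjusted p 0.0267), while a dimmer one was under the filter. The names of the 2 tested probe sets differ only in a suffix, so they may read 1 target and are not independent measures. In letter C slc25a14 had 411.9 in E2+TCDD 1, 213.3 in TCDD 1, 282.4 in E2 1 and 262.0 in DMSO 1, so there the arrays labelled with TCDD were both the highest and the lowest.

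The pyrimidine nucleotide carrier slc25a33, also called along the cyp1a split, was lower in the second series, at 1240.0 and 1113.7 in TCDD arrays and 1437.9 and 1253.8 in E2+TCDD arrays, against 1387.9 and 1439.0 in DMSO arrays and 1984.8 and 1779.2 in E2 arrays. The series overlapped at E2+TCDD 2, and the difference was -0.37 ± 0.07 (SE) log2 (limma adjusted p 0.0134). The third, slc25a55a, had 1755.0 and 1743.1 in TCDD arrays and 1641.9 and 1638.6 in E2+TCDD arrays, against 1345.9 and 1330.1 in DMSO arrays and 1508.0 and 1506.1 in E2 arrays. All 4 second-series arrays were higher, by 0.25 ± 0.05 (SE) log2 (limma adjusted p 0.0204).

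The monocarboxylate family member slc16a12b, whose mammalian counterpart carries creatine, had 398.1 and 350.4 in TCDD arrays and 445.8 and 377.3 in E2+TCDD arrays, against 515.0 and 574.0 in DMSO arrays and 580.6 and 575.6 in E2 arrays. The series did not overlap. The mean was 392.9 ± 40.3 in the second series and 561.3 ± 31 in the first (SD, n = 4 each), a difference of -0.50 ± 0.08 (SE) log2 (limma adjusted p 0.00899). It passed in all 8 fits with 1 array left out, as did slc25a14.

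Carriers of phosphate, copper and calcium completed the list. The phosphate transporter slc20a1a had 232.0 and 245.5 in TCDD arrays and 310.6 and 268.4 in E2+TCDD arrays, against 305.9 and 375.2 in DMSO arrays and 374.2 and 337.5 in E2 arrays. E2+TCDD 2 lay just above DMSO 2. The difference was -0.38 ± 0.09 (SE) log2 (limma adjusted p 0.0485), and it passed in 1 of 8 fits with 1 array left out. The copper importer slc31a1 had 1328.0 and 1143.8 in TCDD arrays and 1410.8 and 1453.4 in E2+TCDD arrays, against 1681.9 and 1912.2 in DMSO arrays and 1704.0 and 1570.4 in E2 arrays. All second-series arrays were lower, at -0.36 ± 0.07 (SE) log2 (limma adjusted p 0.0147), whereas its dimmer probe set differed by -0.16 and was not called. The potassium-dependent sodium-calcium exchanger slc24a4a had 718.8 and 650.0 in TCDD arrays and 751.2 and 682.8 in E2+TCDD arrays, against 562.1 and 506.5 in DMSO arrays and 608.0 and 567.2 in E2 arrays. All second-series arrays were higher, by 0.31 ± 0.07 (SE) log2 (limma adjusted p 0.0373), passing in 1 of 8 fits with 1 array left out. Without DMSO 3, E2 2 or TCDD 3 the 7 calls became 2, and without E2 3 or E2+TCDD 3 they became 4.

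**Figure D3:**
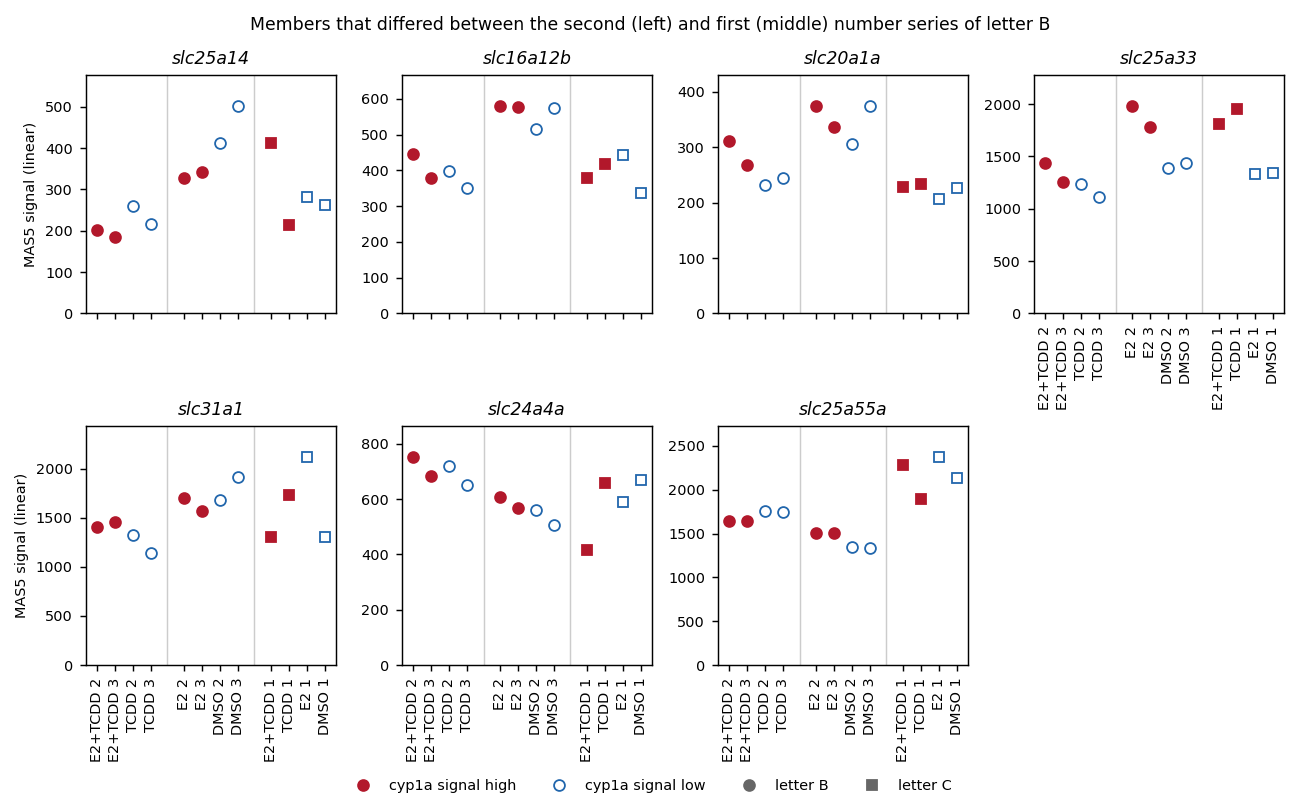
MAS5 signal (linear axis from 0) of the 7 SLC genes called between the number series of letter B, 1 point per array and no error bars, with second-series arrays (TCDD, E2+TCDD) left of first-series arrays (DMSO, E2) and letter C as squares at the right; filled points mark high cyp1a. Second-series points lie below first-series points in slc25a14 and slc16a12b and above them in slc24a4a and slc25a55a.

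Markers of several tissues differed between the series, those of the digestive tract downward. Of 6 enterocyte markers tested, 5 were lower in the second series and 0 higher, with a list median of -0.45 log2. Their summed signal was 19504 to 22973 in the second series and 23819 to 28115 in the first. Of 5 exocrine pancreas markers, 2 were lower, with summed signals of 11780 to 17660 in the second series and 18386 to 24263 in the first. Pronephros markers, of which slc20a1a is itself 1, gave 1 lower call of 4, that of slc20a1a, with summed signals of 1714 to 2103 in the second series and 2018 to 2397 in the first. The others, not called, were cdh17 at -0.27 log2, pax2a at 0.12 and hnf1bb at 0.19. Neuron markers gave 1 higher call of 5, elavl3 at 0.28 log2 (limma adjusted p 0.0145), with summed signals of 18228 to 19522 in the second series and 17449 to 18140 in the first. Skeletal muscle markers gave 1 higher call of 5, ckma at 0.20 log2 (limma adjusted p 0.0282), with summed signals of 132263 to 145738 in the second series and 130989 to 136052 in the first. Hepatocyte, erythroid and photoreceptor markers gave 0 calls. The only ionocyte marker tested, ca2, was not called (-0.13 log2, limma adjusted p 0.134). Its signal was 4329 to 4439 in the second series and 4575 to 4987 in the first, without overlap. The part of these tissues in the SLC differences was not tested. Also lower in the second series, though not called, were 3 genes picked here with their values in view. These were slc13a1 for sulfate (-0.70 ± 0.20 (SE) log2, limma adjusted p 0.0839), slc15a1b for peptides (-0.65 log2, limma adjusted p 0.0931) and slc6a19b for neutral amino acids (-0.52 ± 0.15 (SE) log2, limma adjusted p 0.0907). No list of gut or kidney carriers was drawn up, so they do not stand for such carriers. The glucose transporter slc2a2 (0.08 log2) and the amino acid carrier slc7a8a (0.17), likewise drawn from no list, were higher, neither called. A second probe set of slc7a8a, nearly as bright, stood at -0.02 log2.

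By substrate class, calls were spread over classes rather than filling 1 of them. Classes were set by family number alone, so single members were not sorted by their own substrate. The amino acid class thus held slc7a6os, and slc32a1 was among the unclassed families. Of all probe sets, 3.21% were called along the split that cyp1a followed and 2.98% between the number series. Of all members, 8.11% and 6.31% were called. Along the cyp1a split, inorganic ion carriers had 3 calls among 16 tested, mitochondrial carriers 2 among 23, and carriers of monocarboxylates and organic ions 2 among 16. Carriers of nucleotides, nucleosides and vitamins had 1 among 7, and the unclassed families 1 among 7. Amino acid carriers had 0 among 21, metal carriers 0 among 13, sugar carriers 0 among 6 and fatty acid carriers 0 among 2. Class medians lay between -0.10 (metals) and 0.04 log2. Between the number series the lowest class median was that of monocarboxylate and organic ion carriers, at -0.17 log2, with 14 of 16 tested members below 0, and 1 called. The median of all members was also below 0, at -0.05 log2, while that of all probe sets was 0.01. Metal carriers had a median of -0.11 with 1 called among 13, and inorganic ion carriers -0.05 with 2 called among 16. The other medians lay between -0.06 and 0.05 log2.

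**Figure D4:**
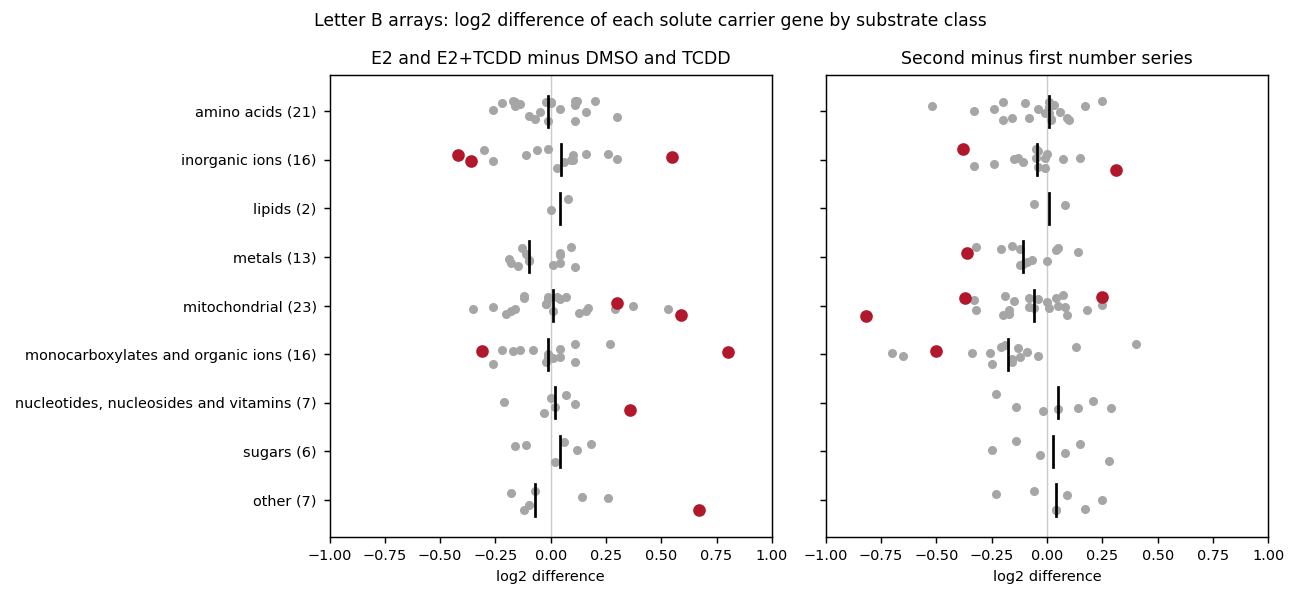
Log2 difference of each of the 111 tested SLC genes in letter B by substrate class, with the number tested in brackets, 1 point per gene and a line at 0; the left panel shows E2+TCDD and E2 minus TCDD and DMSO arrays, the right panel the second minus the first number series, and filled points were called. In the right panel the monocarboxylate and organic ion carriers lie mostly left of 0, with a median of -0.17, against -0.05 for all 111 members.

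Large families without a call are described by the member farthest from 0. Along the cyp1a split, the glutamine transporter slc38a5b led its family at -0.26 ± 0.06 (SE) log2 (limma adjusted p 0.0527). Its signal was 2263.5 and 2052.8 in E2+TCDD arrays and 2000.3 and 2147.7 in E2 arrays, against 2450.4 and 2171.9 in TCDD arrays and 2974.5 and 2572.6 in DMSO arrays. E2+TCDD 2 lay above TCDD 3, and the DMSO arrays were the highest. The glucose transporter family was led by slc2a10 at -0.16 log2, zinc importers by slc39a13 at -0.18, zinc exporters by slc30a1a at -0.19 and monocarboxylate carriers by slc16a1b at 0.27, none of them called. Between the number series the leading members were slc2a11b at 0.28, slc39a13 at -0.32, slc30a7 at -0.21, slc35a4 at 0.29 and, in its family, slc38a5b at -0.10 log2, again with none called.

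Other transport genes gave 2 calls along the cyp1a split and 1 between the number series, where 3.21% and 2.98% of all probe sets were called. Of 12 tested ABC transporter genes, 1 was called along the cyp1a split, the lipid transporter gene abca12 (0.25 log2, limma adjusted p 0.0386). Of 5 aquaporin genes, 1 was called, aqp8a.1 (0.35 log2, limma adjusted p 0.00415), with 1810.3 and 1856.4 in E2+TCDD arrays and 1733.6 and 1981.8 in E2 arrays, against 1276.8 and 1259.4 in TCDD arrays and 1679.1 and 1611.9 in DMSO arrays. The E2-labelled arrays were the higher ones in both series, with the wider step in the second. Of 12 subunit genes of the sodium-potassium ATPase, which sets the sodium gradient that many SLC proteins use, 0 were called along that split and 1 between the number series. That was atp1a1a.4, with 2828.6 and 2250.4 in TCDD arrays and 2930.6 and 2985.2 in E2+TCDD arrays, against 3548.1 and 3935 in DMSO arrays and 3502.8 and 3398.1 in E2 arrays (-0.39 log2, limma adjusted p 0.0125).

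Letters differed from each other for a similar share of SLC genes and of all probe sets. Comparing the arrays that share a number, 10 of 111 members (9.01%) lay more than 0.5 log2 apart between letter C and letter B, against 10.6% of probe sets. The median size of the difference was 0.21 log2 for members and 0.19 for all. The widest was slc16a1b, at 1.68 log2 higher in letter C, followed by the organic cation transporter slc22a2 at -0.86, the mitochondrial slc25a48 at -0.71, the glucose transporter slc2a2 at -0.65 and slc15a1b at -0.62. The 2 probe sets of slc22a2 disagreed, with 110.1 to 137.1 in letter C and 176.6 to 270.9 in letter B on the brighter, against 95.6 to 151.4 in letter C and 69.8 to 108.3 in letter B on the dimmer.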

How the data were processed

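Expression was measured on 12 single-colour Affymetrix zebrafish arrays. The authors deposited a linear intensity for each probe set, the MAS5 signal. The submitters' processing notes name MAS5 and Affymetrix Expression Console, without a version. The 2% trimmed means of the arrays were alike (500.13 and 500.14 in E2 1 and DMSO 1), and the values were used as deposited. Means this close can be set by scaling to a common target, so they do not show whether further normalisation was needed. After leaving out 115 control probe sets, log2(signal + 16) was taken. Probe sets under the 25th percentile of mean log2 value (a signal of 66.5) were not tested, and 11626 remained. These intensities carry no read depth, and the number of arrays limits the precision.

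Gene names came from the platform annotation, where 10795 probe sets had 1 symbol, 135 several and 4572 none; 10711 were matched to RefSeq by Entrez ID and 1 symbol was updated. Tests used limma 3.58.1 in R 4.3.3 (lmFit, eBayes with a variance trend, two-sided), with Benjamini-Hochberg adjustment over all 11626 probe sets and a threshold of 0.05. The 12-array fit had group and letter as terms, and the letter B fits had group. Some contrasts of the 12-array and letter B fits were tried on simulated data. Those data had no letter effect and no unlike marker states within groups, so they do not test these limits. Members, gene lists, contrasts and the rule for named genes were chosen with earlier results of these data known. That rule named members called in a letter B contrast, the 5 of smallest p in contrasts with under 5 calls, the farthest member of each family with at least 5 measured members, the 5 brightest, and called genes of the other transport lists. Alternatives were other pseudocounts, filters and normalisations, array weights, no variance trend, the mean over probe sets of a gene, other terms or groups in the fit, and leaving out each array. Genome positions are not given, because no build is named for the arrays.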

Additional observations from a re-analysis of the deposited data

Results flagged for a closer look

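Of 32 sets of 4 letter B arrays, taken for the genes named as called, 1 held an array far from the rest. For slc16a12b in the first-series arrays (E2 and DMSO), DMSO 2 had a signal of 515, while the nearest of the others had 574 and the farthest 580.6. The gap was 0.904 of the range, above Dixon's critical value for 4 samples. Chance flags about 1 in 20 such sets, and DMSO 2 was still above all second-series arrays.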

How the results depend on the processing

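Calls of SLC genes depended most on the variance trend and on single arrays. The counts below are of members alone and are not set beside the calls among all probe sets. They do not show whether SLC genes were more sensitive to a setting than other genes. Without the variance trend the 9 calls along the cyp1a split became 2, the 3 in E2 over DMSO of letter B became 1, and the 7 between the number series became 1. In the 12-array contrast of E2+TCDD over DMSO the count of 0 became 3 with array weights and 1 with only the 2 groups compared. Leaving out 1 array gave 0 to 2 calls in that contrast (2 without TCDD 1, 1 without E2 1 or E2+TCDD 1), 0 to 1 in E2 over DMSO of the 12 arrays, 3 to 8 along the cyp1a split, 1 to 5 in E2 over DMSO of letter B, 0 to 2 in E2+TCDD over TCDD, and 2 to 8 between the number series. The 1 call in E2 over DMSO of the 12 arrays came without E2 1. In E2 over DMSO of letter B, 1 call was left without DMSO 2, E2 2 or E2 3 and 5 were made without E2+TCDD 2 or E2+TCDD 3. In E2+TCDD over TCDD, 0 were made without E2+TCDD 2. One direction reversed: slc39a13 along the cyp1a split, not called, had -0.18 log2 in the fit reported and 0.03 when 8 arrays were grouped by description number over both letters, which gave 6 calls. Over all settings run, slc37a4a and slc25a43 passed along the cyp1a split in 19 of 19, slc34a2b in 16 of 19, slc15a1b in 8 of 18 and slc4a2a in 9 of 19. Between the number series slc25a14 passed in 18 of 18, slc16a12b in 17 of 18, slc24a4a in 9 of 18 and slc20a1a in 6 of 18. By correlation of residuals, no pairing of arrays by replicate number was seen. After the letter, 0 of 12 pairs with 1 number had residuals that correlated over 0.1, the range being -0.232 to 0.0202. Residuals of such a fit lean below 0, so a weak pairing could be missed. For deviations from the group mean in letter B alone, 0 of 6 pairs passed 0.1, with a range of -0.0652 to 0.0919. Single genes could still follow the replicate number, as cyp19a1b did in letter B. With the replicate number as a block, 9 members were called along the cyp1a split and 6 between the number series. Dim probe sets limit the comparison, with 25 of 136 members under the filter.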
